A study of Rattus norvegicus with 35 samples.

Results

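The genes followed here are interferon-stimulated genes and transcription factors that act on such genes: Gbp2, Irf1, Stat3, Mx1, Mx2 and Oas1a. They were taken as every probe-set whose single gene symbol in the probe annotation is one of these names, which gave 8 probe-sets for 6 genes, of 8740 probe-sets and 4736 genes in all. Irf1 and Stat3 have 2 probe-sets each, and the other 4 genes have 1. In the study, ventricular cells of neonatal rat hearts were grown as cultures enriched for cardiac myocytes (CM) or as cultures of fibroblasts (FB) and exposed to ultraviolet C radiation (UV, 10 J/m2), X-rays (IR, 8.5 Gy) or cyclic stretch (MS, 24 h), and RNA of the irradiated cells was taken 24 h after exposure. Controls were sham-irradiated cells for UV and IR, and unstretched cells on the same collagen-coated plates for MS. Each group has 3 arrays, from 3 numbered experiments, but CM UV controls have 2, so that UV-treated CM array 3 has no partner and the CM UV comparison rests on 2 pairs.

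The 2 populations are enriched, not pure. CM of the UV and IR experiments were CM-enriched fractions obtained by elutriation of trypsinised cultures, whereas CM of the MS experiments were cultures that were not fractionated and held fewer myocytes. FB were subcultured before exposure and were not fractionated. Summed over 14 measured cardiomyocyte markers, the scaled intensity was 42002 to 91425 in CM and 3829.9 to 30446 in FB, and 10 fibroblast markers summed to 6515 to 36186 in CM and 28874 to 43475 in FB. Of 10 measured leukocyte markers, 2 to 5 were at the floor on every array. Fewer cells of a type and less RNA per cell cannot be told apart in these bulk samples.

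Interferons bind receptors at the cell surface whose Janus kinases phosphorylate STAT proteins, which enter the nucleus and start transcription of a large set of genes. Type I interferons act through a complex that binds the interferon-stimulated response element (ISRE), and interferon gamma mainly through STAT dimers that bind a shorter STAT element. IRF proteins bind elements of the ISRE kind, and some IRF genes are interferon-stimulated themselves. Irf1 is such a factor. Stat3 is the STAT protein best known for signals of the interleukin 6 family, which use the receptor subunit gp130, and in cardiac myocytes it is known for a role in hypertrophy and survival. Gbp2 is a GTPase of the guanylate-binding family, Mx1 and Mx2 are dynamin-like antiviral GTPases, and Oas1a belongs to the oligoadenylate synthetases, which activate RNase L when they sense double-stranded RNA.

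Promoters of 5 of the 6 genes were found in RefSeq sequence of build GRCr8, as 250 bases before and 50 bases after the start. A promoter of Mx2 was not used here. They were searched on both strands for a STAT element (TTCNNNGAA) and an ISRE (GAAANNGAAA). The sequences of Gbp2, Irf1 and Oas1a are shown because these 3 genes hold a match, which is printed in capitals. Their changes also had the highest Pearson's r among the members over the 17 pairs of treated and control arrays. It was 0.73 for Gbp2 and Irf1, 0.74 for Gbp2 and Oas1a and 0.73 for Irf1 and Oas1a. These values mostly describe the UV response, and whether a match goes with a change was not tested.
Gbp2 (chr2:234005477-234005776, plus strand): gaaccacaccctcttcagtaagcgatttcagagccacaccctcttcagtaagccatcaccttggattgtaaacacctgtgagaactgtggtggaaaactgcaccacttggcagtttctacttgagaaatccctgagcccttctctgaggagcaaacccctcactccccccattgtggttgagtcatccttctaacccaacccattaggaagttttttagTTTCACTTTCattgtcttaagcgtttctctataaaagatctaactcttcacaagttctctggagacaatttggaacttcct
Irf1 (chr10:38417685-38417984, plus strand): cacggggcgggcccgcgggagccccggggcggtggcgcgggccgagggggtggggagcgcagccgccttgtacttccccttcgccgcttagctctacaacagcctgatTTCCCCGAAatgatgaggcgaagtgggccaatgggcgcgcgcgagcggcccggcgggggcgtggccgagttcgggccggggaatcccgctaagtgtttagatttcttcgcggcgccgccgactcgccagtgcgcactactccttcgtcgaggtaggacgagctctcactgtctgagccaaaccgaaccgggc
Oas1a (chr12:41330216-41330515, plus strand): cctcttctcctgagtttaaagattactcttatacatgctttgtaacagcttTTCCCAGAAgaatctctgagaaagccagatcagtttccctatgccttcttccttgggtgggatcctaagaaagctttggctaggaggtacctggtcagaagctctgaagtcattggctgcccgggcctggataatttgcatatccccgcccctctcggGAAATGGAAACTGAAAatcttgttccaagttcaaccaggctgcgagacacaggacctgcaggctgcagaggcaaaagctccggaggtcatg
The match of Gbp2 is an ISRE on the other strand that begins 31 bases before the start, that of Irf1 is a STAT element that begins 142 bases before it, and Oas1a has a STAT element 199 bases before and 2 overlapping ISREs, 41 and 35 bases before the start. The windows of Stat3 and Mx1 hold neither. Of 33469 promoters of this length, 8.87% hold the STAT element, 3.92% the ISRE and 12.3% either of them. A match describes the letters of the window only.

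Levels are given on a log2 scale after scaling and quantile normalization, where a difference of 1 is a 2-fold difference and 2.78 is the lowest value, to which signals at or below the floor were raised. Changes are log2 differences, treated minus control, each given with the standard error (SE) of the limma model, which was fitted over all 35 arrays with the numbered experiment as a block, and a change was called at an adjusted p under 0.05. Levels of different probe-sets cannot be compared with each other.

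The guanylate-binding GTPase Gbp2 showed the largest rise of the 8 probe-sets after UV in FB. Gbp2 levels were 7.21, 7.08 and 7.05 in UV-treated FB, against 3.25, 3.43 and 2.78 (at the floor) in their controls. The lowest treated array was thus far above the highest control. The change was 3.96 (SE 0.29, adjusted p = 1.20e-06, limma), seen in 3 of 3 pairs. As a fold this is 15.5, but the controls lay at or close to the floor, and with a higher floor the change was 2.50 (adjusted p = 2.78e-08), so the size of the rise depends on the floor. In CM fractions Gbp2 levels were 5.21, 3.50 and 4.72 after UV, against the floor in both controls. The groups did not overlap, but the controls give only a bound: the mean of the 3 treated arrays was at least 3.24-fold above the floor. The paired estimate was 1.57 (SE 0.36, adjusted p = 0.00992), with 2.43 in pair 1 and 0.72 in pair 2. Without experiment 1 the Gbp2 change in CM was 0.72, from pair 2 alone. Without experiment 3 of every group it stayed at 1.57, as CM UV has no pair in that experiment. Its adjusted p was then 0.0559 (limma), in a fit with fewer arrays of the other comparisons.

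The transcription factor Irf1 rose after UV in both populations and on both of its probe-sets. On the brighter probe-set (M34253_g_at), Irf1 levels were 9.29, 8.80 and 8.63 in UV-treated CM, against 7.46 and 7.32 in CM controls. In FB they were 8.19, 7.99 and 8.83 after UV, against 6.69, 7.29 and 7.56 in FB controls. In neither population did treated and control arrays overlap. The changes of this probe-set were 1.65 (SE 0.18, adjusted p = 7.34e-05) in CM and 1.16 (SE 0.15, adjusted p = 8.62e-05) in FB. On the dimmer probe-set (M34253_at), Irf1 levels were 7.22, 6.94 and 6.96 in UV-treated CM, against 4.29 and 5.25 in CM controls, and 6.05, 6.37 and 6.68 in UV-treated FB, against 5.06, 4.31 and 5.21 in FB controls. Its changes were 2.31 (SE 0.26, adjusted p = 8.84e-05) in CM, a 4.96-fold rise, and 1.50 (SE 0.21, adjusted p = 0.000197) in FB, a 2.84-fold rise. Both probe-sets come from 1 sequence entry and share their target, so they are not independent measurements of Irf1.

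**Figure D1:**
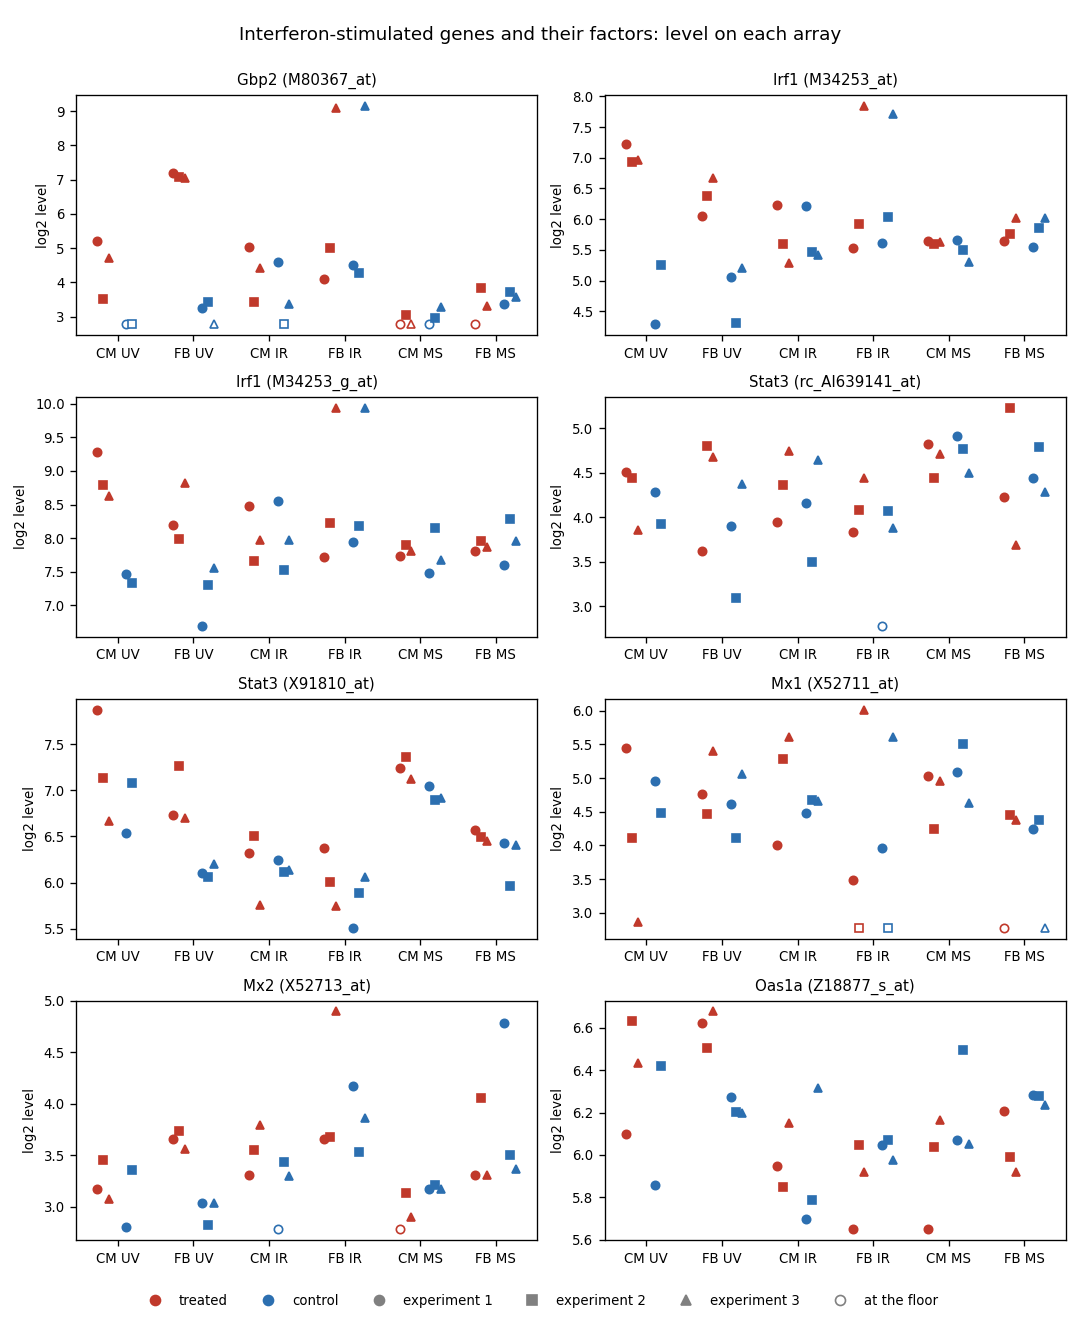
Log2 level of each of the 8 probe-sets (vertical axis) on each of the 35 arrays, by population and stressor (horizontal axis), with treated arrays in red to the left of controls in blue, the numbered experiment as the symbol and open symbols at the floor. Gbp2 and both Irf1 probe-sets stand apart from their controls after UV in CM and in FB, and both arrays of experiment 3 of FB IR lie high in Gbp2 and Irf1.

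Stat3, the STAT factor of the interleukin 6 family, changed less. On its brighter probe-set (X91810_at), Stat3 levels were 6.73, 7.27 and 6.70 in UV-treated FB, against 6.11, 6.06 and 6.20 in FB controls, and the groups did not overlap. The change in FB was 0.78 (SE 0.26, adjusted p = 0.0468), a 1.71-fold rise close to the threshold. Leaving out any 1 of the 3 experiments took its adjusted p to between 0.0957 and 0.255. In CM, Stat3 levels were 7.88, 7.13 and 6.66 after UV, against 6.54 and 7.09 in controls, which overlapped. The estimate in CM was 0.69 (SE 0.31, adjusted p = 0.166), with a 95% interval of 0.01 to 1.38, and it did not pass. The dimmer Stat3 probe-set (rc_AI639141_at) had 4.51, 4.45 and 3.86 in UV-treated CM, against 4.29 and 3.92 in controls, and 3.62, 4.80 and 4.68 in UV-treated FB, against 3.91, 3.09 and 4.37 in controls. Its estimates were 0.37 (SE 0.42, adjusted p = 0.673) in CM and 0.57 (SE 0.34, adjusted p = 0.288) in FB. With 1 of its 2 probe-sets past the threshold, Stat3 counts as a called gene in FB under the study's rule of at least 50% of probe-sets.

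Of the 3 antiviral effectors, Oas1a passed the test in FB and Mx1 and Mx2 did not, and differences between the 3 genes were not tested. Oas1a levels were 6.62, 6.50 and 6.68 in UV-treated FB, against 6.27, 6.20 and 6.20 in FB controls, with no overlap. The FB change was small, at 0.38 (SE 0.12, adjusted p = 0.0378), and leaving out 1 experiment took its adjusted p to between 0.132 and 0.209. In CM, Oas1a had 6.10, 6.63 and 6.43 after UV, against 5.86 and 6.42 in controls, with an estimate of 0.23 (SE 0.15, adjusted p = 0.356). The Oas1a probe-set is of the kind whose probes can match more than 1 transcript. Mx2 was dim: its levels were 3.66, 3.74 and 3.56 in UV-treated FB, against 3.04, 2.82 and 3.04 in FB controls. These groups did not overlap, but the estimate of 0.68 (SE 0.32) had an adjusted p of 0.164. In CM, Mx2 had 3.18, 3.46 and 3.08 after UV, against 2.81 and 3.36 in controls (0.24, SE 0.39, adjusted p = 0.828). Mx1 levels scattered widely, with 5.45, 4.11 and 2.86 in UV-treated CM, against 4.96 and 4.48 in CM controls, and 4.76, 4.47 and 5.41 in UV-treated FB, against 4.62, 4.11 and 5.06 in FB controls. The Mx1 estimates were 0.06 (SE 0.58, adjusted p = 1) in CM and 0.28 (SE 0.47, adjusted p = 0.824) in FB. The 95% interval of Mx1 in FB was -0.75 to 1.32, so a rise of 2-fold lies within it.

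Counted over all 8 probe-sets, 3 rose and none fell after UV in CM (Gbp2 and both of Irf1), where 8.62% of all probe-sets rose, 8.16% fell and 16.8% changed in either direction. After UV in FB, 5 rose and none fell (those 3, Stat3 X91810_at and Oas1a), where 11.7% of all probe-sets rose, 11.2% fell and 22.9% changed in either direction. The median change of the 8 probe-sets was 0.53 in CM and 0.73 in FB, while over all probe-sets it was 0 in both. Treated arrays lay above every control array for 3 of the 8 in CM, where this held for 16.6% of all probe-sets, and for 6 of the 8 in FB, where it held for 15.9%. These are counts over genes that were chosen with results of these data known. Cardiomyocyte markers moved with the UV groups, with sums of 57007.5 to 64266 in UV-treated CM, against 79741 to 91425 in CM controls, and 8490.4 to 13235 in UV-treated FB, against 24668 to 27506 in FB controls. Fibroblast markers summed to 6515 to 10456.5 in UV-treated CM, against 9713 to 14900.5 in CM controls, and to 28874 to 34748 in UV-treated FB, against 38450 to 43475 in FB controls. Endothelial markers summed to 190.7 to 245 in UV-treated CM, against 234 to 586 in CM controls, and to 163 to 178 in UV-treated FB, against 193 to 299.8 in FB controls. In FB, treated arrays lay below all controls in the sums of cardiomyocyte, fibroblast and endothelial markers, and in CM in that of cardiomyocyte markers. Leukocyte markers summed to 351 to 491 in UV-treated CM, against 422 to 459 in CM controls, and to 426 to 496 in UV-treated FB, against 348 to 454 in FB controls. The part of such markers in the changes of the members was not tested.

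Neither X-rays nor stretch gave a call for any of the 8 probe-sets. After IR, 0 of 8 passed in CM, where 0.732% of all probe-sets passed, and 0 of 8 in FB, where 0.0801% passed. After MS, 0 of 8 passed in CM and 0 of 8 in FB, and 0% of all probe-sets passed in either, while 414 in CM and 468 in FB had an unadjusted p under 0.05 in limma. After IR, 993 of all 8740 probe-sets in CM and 599 in FB had an unadjusted p under 0.05 in limma. At that level, 1 of 8 members passed after IR in CM, and 0 passed in the other 3 comparisons. That member was Gbp2, with 5.05, 3.42 and 4.43 in IR-treated CM, against 4.60, 2.78 (at the floor) and 3.38 in CM controls. Treated and control arrays overlapped, but Gbp2 was higher in 3 of 3 pairs. The estimate was 0.71 (SE 0.29, limma, adjusted p = 0.383) and did not pass. Irf1 (M34253_g_at) had 8.48, 7.66 and 7.97 in IR-treated CM, against 8.55, 7.53 and 7.97 in their controls, an estimate of 0.02 with a 95% interval of -0.30 to 0.34. The UV change of this probe-set in CM, 1.65, lies outside that interval. After IR in FB the 8 estimates lay between -0.16 and 0.54, with a smallest adjusted p of 0.842. Experiment 1 of CM IR had the highest Gbp2 in both arms, and there endothelial markers summed to 1818 in the treated and 1652 in the control array, against 489 and 559 in the other treated and 695 and 779.7 in the other control arrays. The part of endothelial cells in the Gbp2 level was not tested.

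After MS the estimates of the 8 probe-sets lay between -0.33 and 0.29 in CM and between -0.32 and 0.24 in FB. Stat3 (X91810_at) was the 1 probe-set whose stretched arrays all lay above the controls in both populations. Its levels were 7.25, 7.36 and 7.12 in stretched CM, against 7.04, 6.90 and 6.92 in CM controls, and 6.57, 6.50 and 6.45 in stretched FB, against 6.43, 5.96 and 6.40 in FB controls. The estimates were 0.29 (SE 0.26, adjusted p = 1) in CM and 0.24 (SE 0.26, adjusted p = 1) in FB and did not pass. Stretched arrays lay above all controls for 3.35% of all probe-sets in CM and 2.72% in FB. The dimmer Stat3 probe-set (rc_AI639141_at) had lower means after stretch, 4.66 against 4.73 in CM and 4.38 against 4.50 in FB. Over all 17 pairs of the study, Stat3 X91810_at was higher in the treated array in 15. The other 7 probe-sets had 8 to 11 such pairs, with 11 for the dimmer Stat3 probe-set. How many of all probe-sets reach 15 pairs was not counted. Oas1a had lower means in stretched cells than in controls. In CM its levels were 5.65, 6.04 and 6.17 after stretch, against 6.07, 6.49 and 6.05 in controls. In FB they were 6.21, 5.99 and 5.92 after stretch, against 6.28, 6.28 and 6.24 in controls. Its estimates of -0.26 (SE 0.12, adjusted p = 1) in CM and -0.23 (SE 0.12, adjusted p = 0.983) in FB did not pass. Stretched arrays lay below all controls for Oas1a in FB and for Mx2 in CM (2.78 at the floor, 3.13 and 2.91 in stretched CM, against 3.17, 3.21 and 3.18 in controls), as for 2.43% and 3.66% of all probe-sets in FB and in CM.

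**Figure D2:**
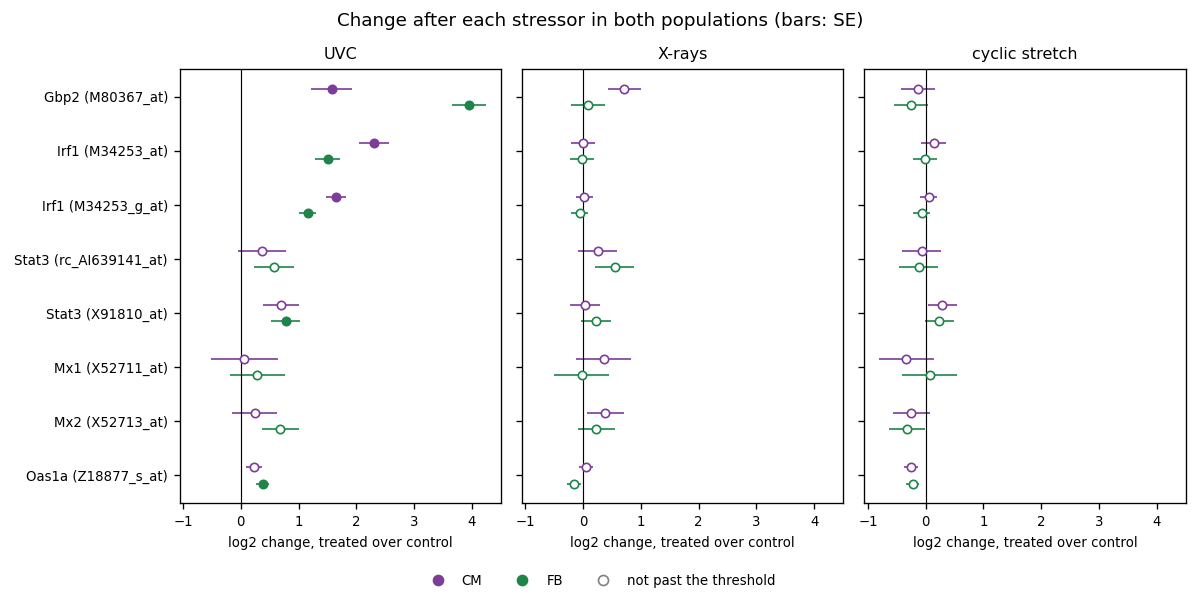
Log2 change of treated over control (horizontal axis) with its SE for each probe-set (vertical axis) after UV, IR and MS, with CM in purple above FB in green and filled symbols where the adjusted p was under 0.05. Filled symbols occur after UV only: Gbp2 and Irf1 in both populations, and Stat3 (X91810_at) and Oas1a in FB.

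Whether a response differed between stressors was tested directly. In CM the UV response exceeded the IR response for 2 of the 8 probe-sets, both of Irf1, where 4.46% of all probe-sets passed in that direction and 4.55% in the other. The Irf1 differences were 2.31 (SE 0.33, adjusted p = 0.00126) and 1.63 (SE 0.23, adjusted p = 0.00120). In CM it exceeded the MS response for 3 of 8, both of Irf1 and Gbp2 (1.71, SE 0.46, adjusted p = 0.0381), where 4.27% of all passed and 4.84% in the other direction. For Gbp2 both CM UV controls, 2 stretched CM arrays and 1 unstretched CM array were at the floor, and its call was lost in 5 of 11 alternatives, with values of 0.30 to 2.68, such as without experiment 1 (0.92, adjusted p = 0.414) or 3 (1.53, adjusted p = 0.237). In FB the UV response exceeded the IR response for 3 of 8, Gbp2 (3.87, SE 0.41, adjusted p = 6.94e-05) and both of Irf1 (1.53 and 1.22, adjusted p = 0.00419 and 0.00169), where 7.12% of all passed and 7.27% in the other direction. It exceeded the MS response for 4 of 8, those 3 and Oas1a (0.60, SE 0.17, adjusted p = 0.0315), where 6.45% of all passed and 7.46% in the other direction. The call of Oas1a was lost in 7 of 11 alternatives, among them each experiment left out (adjusted p = 0.135 to 0.242). Irf1 calls were lost in some alternatives as well. In FB, UV minus IR lost its call in 2 (M34253_at) and 4 (M34253_g_at) of 11, and UV minus MS in 3 on both probe-sets. In CM these were 2 and 3 for UV minus IR, and 2 on both for UV minus MS. Without experiment 3, the adjusted p (limma) of these Irf1 differences in FB was 0.0825 to 0.118. For Gbp2 in CM, UV minus IR was 0.86 (SE 0.46, adjusted p = 0.317) and did not pass. No member differed in the opposite direction.

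Between the populations, 1 of the 8 probe-sets passed the test of a different response after UV, where 6.35% of all probe-sets did. This was Gbp2, whose change in CM minus that in FB was -2.38 (SE 0.46, adjusted p = 0.0104). Both CM controls were at the floor, so the CM change could not be measured in full, and the size of this difference depends on the floor. The treated arrays alone were 3.50 to 5.21 in CM and 7.05 to 7.21 in FB, without overlap. Without experiment 2 the difference in Gbp2 was -1.68 (adjusted p = 0.0841), and without experiment 3 it was -2.23 (adjusted p = 0.112). Without the block, or with the block as random, its adjusted p was 0.641 or 0.286. For Irf1 the difference ran the other way, 0.80 (SE 0.33, adjusted p = 0.198) and 0.49 (SE 0.23, adjusted p = 0.266) on its 2 probe-sets, and neither passed with all experiments. After IR and MS, 0 of 8 differed, where 0.0686% and 0% of all probe-sets did.

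Untreated levels were compared between CM and FB in the control arrays of each stressor. Every CM control array of Stat3 (X91810_at) lay above every FB control array of the same stressor, and the difference passed the test in 2 of the 3 sets. How many of all probe-sets separate the controls in this way was not counted. Whether the lack of overlap is particular to Stat3 is therefore not known. Stat3 (X91810_at) had 6.54 and 7.09 in CM controls of UV, against 6.11, 6.06 and 6.20 in FB controls. In the MS set it had 7.04, 6.90 and 6.92 in CM controls, against 6.43, 5.96 and 6.40 in FB controls. The arrays did not overlap in either set, and the differences were 0.69 in both (UV: SE 0.19, adjusted p = 0.0230; MS: SE 0.17, adjusted p = 0.0138), a 1.61-fold higher level. In the IR controls Stat3 had 6.25, 6.11 and 6.13 in CM, against 5.51, 5.89 and 6.06 in FB. These arrays did not overlap either, but the difference of 0.34 (SE 0.17, adjusted p = 0.184) did not pass. The other probe-set of Stat3 gave 0.31, 0.52 and 0.23 for UV, IR and MS, and none passed. Without experiment 2 the Stat3 difference of the UV controls was 0.38 (adjusted p = 0.404) and without experiment 3 it was 0.73 (adjusted p = 0.0829), and leaving out any 1 experiment took that of the MS controls to an adjusted p of 0.0559 to 0.145. Of the 8 probe-sets, 1 of 8 differed in the UV controls, 0 of 8 in the IR controls and 1 of 8 in the MS controls, where 22.5%, 25.2% and 22.5% of all probe-sets did. The MS arrays of both populations are on the same deposited scale, while all CM arrays of IR and control 2 of CM UV are on a higher one than the FB arrays.

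In the means of all 3 sets of controls, Gbp2, Oas1a and Irf1 (M34253_at) were lower in CM than in FB. Mx1 and both Stat3 probe-sets were higher in CM, while Mx2 and the other Irf1 probe-set (M34253_g_at) changed order between the sets. Of these differences only those of Stat3 in the UV and MS controls passed the test. For Irf1 (M34253_g_at) they were 7.39 ± 0.10 (SD, n = 2) in CM UV, 8.02 ± 0.51 in CM IR and 7.76 ± 0.34 in CM MS, and 7.18 ± 0.44 in FB UV, 8.68 ± 1.10 in FB IR and 7.95 ± 0.34 in FB MS (SD, n = 3 each). From low to high the order was FB UV, CM UV, CM MS, FB MS, CM IR and FB IR, and neighbours in it overlapped except CM UV (7.32 and 7.46) and CM MS (7.48 to 8.14). Gbp2 averaged 3.59 ± 0.93 in CM IR and 3.01 ± 0.25 in CM MS, and 3.15 ± 0.33 in FB UV, 5.98 ± 2.75 in FB IR and 3.56 ± 0.18 in FB MS, with both CM UV controls at the floor. Mx1 averaged 4.72 ± 0.34 in CM UV, 4.61 ± 0.11 in CM IR and 5.07 ± 0.43 in CM MS, and 4.60 ± 0.48 in FB UV, 4.12 ± 1.42 in FB IR and 3.80 ± 0.89 in FB MS. For both genes the spread within FB IR was the widest of the 6 groups. Mx2 was lowest in FB UV controls (2.97 ± 0.13) and highest in FB MS controls (3.88 ± 0.78), and Oas1a spanned 5.93 ± 0.33 in CM IR to 6.27 ± 0.02 in FB MS. Gbp2 was at the floor on 8 of the 35 arrays, Mx1 on 4, Mx2 on 2 and the dimmer Stat3 probe-set on 1.

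Both arrays of experiment 3 of FB IR, treated and control, stood apart from those of experiments 1 and 2 in 3 of the 6 genes. Gbp2 had 4.10, 4.99 and 9.09 in IR-treated FB, against 4.51, 4.27 and 9.15 in FB controls, in the order of experiments 1, 2 and 3. Irf1 (M34253_g_at) had 7.71, 8.22 and 9.94 in treated arrays, against 7.94, 8.17 and 9.94 in controls, and its other probe-set 5.53, 5.92 and 7.84, against 5.61, 6.04 and 7.72. Mx1 had 3.49, 2.78 (at the floor) and 6.01 in treated arrays, against 3.97, 2.78 (at the floor) and 5.60 in controls. The Gbp2 and Irf1 levels of this experiment were the highest of all 35 arrays, above those of every UV-treated array. Both arms were alike, as treated minus control within experiment 3 was -0.06 for Gbp2. Stat3 (X91810_at; 6.37, 6.01 and 5.74 in treated arrays, against 5.51, 5.89 and 6.06 in controls) and Oas1a (5.65, 6.05 and 5.92, against 6.04, 6.07 and 5.98) did not stand apart, and Mx2 did so in the treated array only (3.66, 3.68 and 4.90, against 4.17, 3.53 and 3.86).

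**Figure D3:**
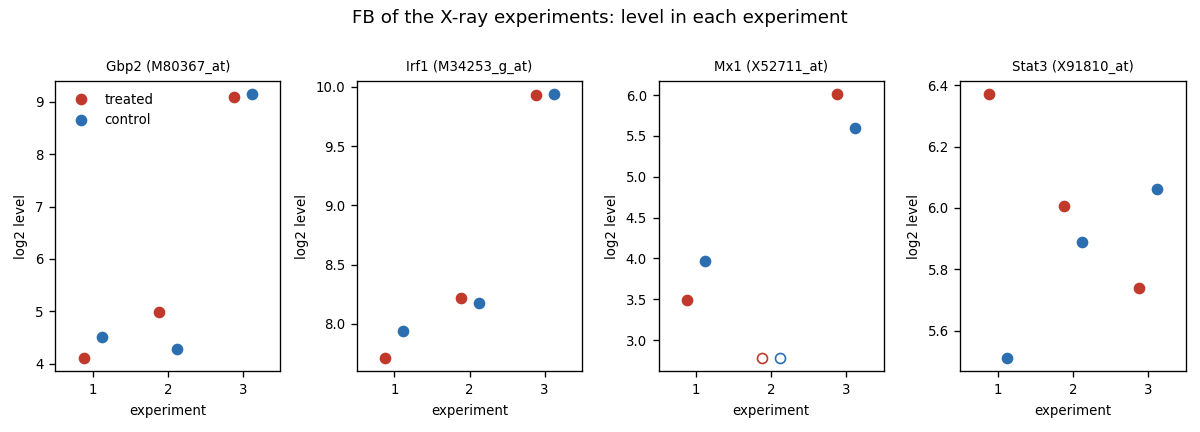
Log2 level (vertical axis) of Gbp2, Irf1, Mx1 and Stat3 in FB of the X-ray experiments 1, 2 and 3 (horizontal axis), with treated arrays in red, controls in blue and open symbols at the floor. In experiment 3 both arms lie high in Gbp2 (9.09 and 9.15), Irf1 (9.94 and 9.94) and Mx1 (6.01 and 5.60), but not in Stat3.

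Many other genes were high in the same 2 arrays. Against the mean of experiments 1 and 2, 424 probe-sets (4.85%) were over 2-fold higher in both arrays of experiment 3 and 339 over 2-fold lower, while the same count gave 0.183% to 1.85% higher for the other 14 experiments with both arms in 3 experiments. Highest stood Ass1 of arginine synthesis (8.75 in the treated and 8.93 in the control array, as log2 differences), the chemokine Ccl5 (8.49 and 8.85), the iron-binding Lcn2 (8.56 and 7.80), the phospholipase Pla2g2a (8.63 and 7.69) and the chemokine Ccl20 (8.26 and 7.68). Nos2 (inducible nitric oxide synthase, 6.95 and 7.39), Il6 (6.49 and 6.27) and Il1b (6.70 and 5.68) were also among the 20 highest. These genes were chosen after their values were seen. Of the lists, given as counts without a test, 8 of 16 known Stat3 targets, 3 of 10 genes of MHC class I and peptide loading 1 of 4 interferons and receptors (Ifngr1, 2.74 and 2.18), 2 of 9 other interferon-stimulated genes, 3 of 12 JAK-STAT kinases and regulators, 2 of 8 gp130 cytokines and receptors and 0 of 9 other STAT and IRF factors were over 2-fold higher in both arrays, where this held for 5.11% of all genes. It also held for 2 of 10 fibroblast and 2 of 14 cardiomyocyte markers and for 0 of 5 endothelial and 0 of 10 leukocyte markers. Leukocyte markers summed to 431 in the treated and 469 in the control array of experiment 3, within the range of experiments 1 and 2 (381 and 546 in treated, 319 and 698 in control arrays). The experiment was left in, and its own control carries the same levels. Without both its arrays the IR estimate in FB was 0.16 for Gbp2 (adjusted p = 1) and -0.09 for Irf1 M34253_g_at (adjusted p = 1), and the CM minus FB difference of Gbp2 in IR controls was -0.80 (adjusted p = 0.183), against -2.39 (SE 0.98, adjusted p = 0.09998) with them.

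The rest of the pathway was read from lists of genes grouped by role. Over all 4736 genes, 481 rose and 436 fell after UV in CM (19.4% called), and 658 rose and 617 fell in FB (26.9% called). Of interferons and their receptors, 4 were measured (Ifnb1, Ifng, Ifnar1 and Ifngr1), and 0 of 4 were called after UV in either population. The type I receptor subunit Ifnar1 had 1.26 (SE 0.44, adjusted p = 0.0693) in CM and 0.95 (SE 0.36, adjusted p = 0.0794) in FB, and Ifnb1, the gene of interferon beta, had 0.20 (SE 0.28) in CM and 0.08 (SE 0.22) in FB. Of other STAT and IRF factors, 1 of 9 rose in CM (11.1% called, below the share of all genes) and 3 of 9 in FB (33.3%). Irf7, the IRF best known for amplifying type I interferon, rose by 2.34 (SE 0.28, adjusted p = 0.000137) in CM and 2.02 (SE 0.23, adjusted p = 3.03e-05) in FB, and its other probe-set gave 1.44 and 2.17. Irf8 (1.11, SE 0.29, adjusted p = 0.0139) and Stat5a (1.16, SE 0.33, adjusted p = 0.0235) rose in FB, and a second probe-set of Stat5a gave 0.60 (adjusted p = 0.600) there. The medians of this list were 0.18 in CM and 0.28 in FB.

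Other interferon-stimulated genes were measured for 9 of 57 listed. In CM 3 rose and 1 fell, and in FB 5 rose and none fell (44.4% and 55.6% called, against 19.4% and 26.9% of all genes). Psme2, a proteasome activator subunit, rose by 1.50 (SE 0.17, adjusted p = 0.000115) in CM and 2.02 (SE 0.14, adjusted p = 8.19e-07) in FB. Eif2ak2, the kinase PKR that senses double-stranded RNA, rose by 1.84 (SE 0.26, adjusted p = 0.000417) and 1.92 (SE 0.21, adjusted p = 2.58e-05), and the chemokine Cxcl10 by 1.30 (SE 0.35, adjusted p = 0.0248) and 1.43 (SE 0.29, adjusted p = 0.00276) in CM and in FB. Both populations thus shared these 3 genes. The antiviral Rsad2 had -0.74 (SE 0.39, adjusted p = 0.239) in CM and rose by 1.57 (SE 0.31, adjusted p = 0.00263) in FB, and the difference was -2.31 (SE 0.50, adjusted p = 0.0172), but its other probe-set missed the threshold in both (-0.79 and 0.87, difference adjusted p = 0.175). Ifitm3, a membrane protein that restricts viral entry, fell by 0.48 (SE 0.11, adjusted p = 0.0100) in CM and rose by 0.29 (SE 0.09, adjusted p = 0.0365) in FB, with a difference of -0.77 (SE 0.14, adjusted p = 0.00805).

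Genes of MHC class I, peptide loading and the immunoproteasome had the highest share of calls after UV among the 7 pathway lists: 6 of 10 rose in CM (60%) and 7 of 10 in FB (70%), none fell, and the medians were 0.70 and 0.87. The peptide transporter Tap1 rose by 1.59 (SE 0.15, adjusted p = 3.39e-05) in CM and 1.15 (SE 0.13, adjusted p = 2.59e-05) in FB, and its other probe-set by 3.57 and 2.74. The immunoproteasome subunit Psmb9 rose by 1.94 (SE 0.21, adjusted p = 8.01e-05) in CM and 1.57 (SE 0.17, adjusted p = 3.02e-05) in FB. Psmb8 rose by 1.15 (SE 0.22, adjusted p = 0.00382) and 1.34 (SE 0.18, adjusted p = 0.000151) in CM and in FB. RT1-M3-1, a class Ib gene, rose by 0.92 (SE 0.15, adjusted p = 0.000988) in CM and had -0.12 (adjusted p = 0.611) in FB, with a difference of 1.04 (SE 0.19, adjusted p = 0.00705), while its other probe-set, at the floor on 18 arrays, did not change. Of kinases and regulators of the JAK-STAT pathway, 0 of 12 rose and 2 fell in CM, and 3 rose and 2 fell in FB (16.7% and 41.7% called, against 19.4% and 26.9% of all genes). Jak3, a Janus kinase, rose by 1.33 (SE 0.13, adjusted p = 1.09e-05) in FB, with a difference to CM of -0.999 (SE 0.21, adjusted p = 0.0142). The feedback inhibitor Socs2 fell by 1.02 (SE 0.31, adjusted p = 0.0397) in CM and by 1.53 (SE 0.25, adjusted p = 0.000669) in FB, and Socs3 was not called in either.

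**Figure D4:**
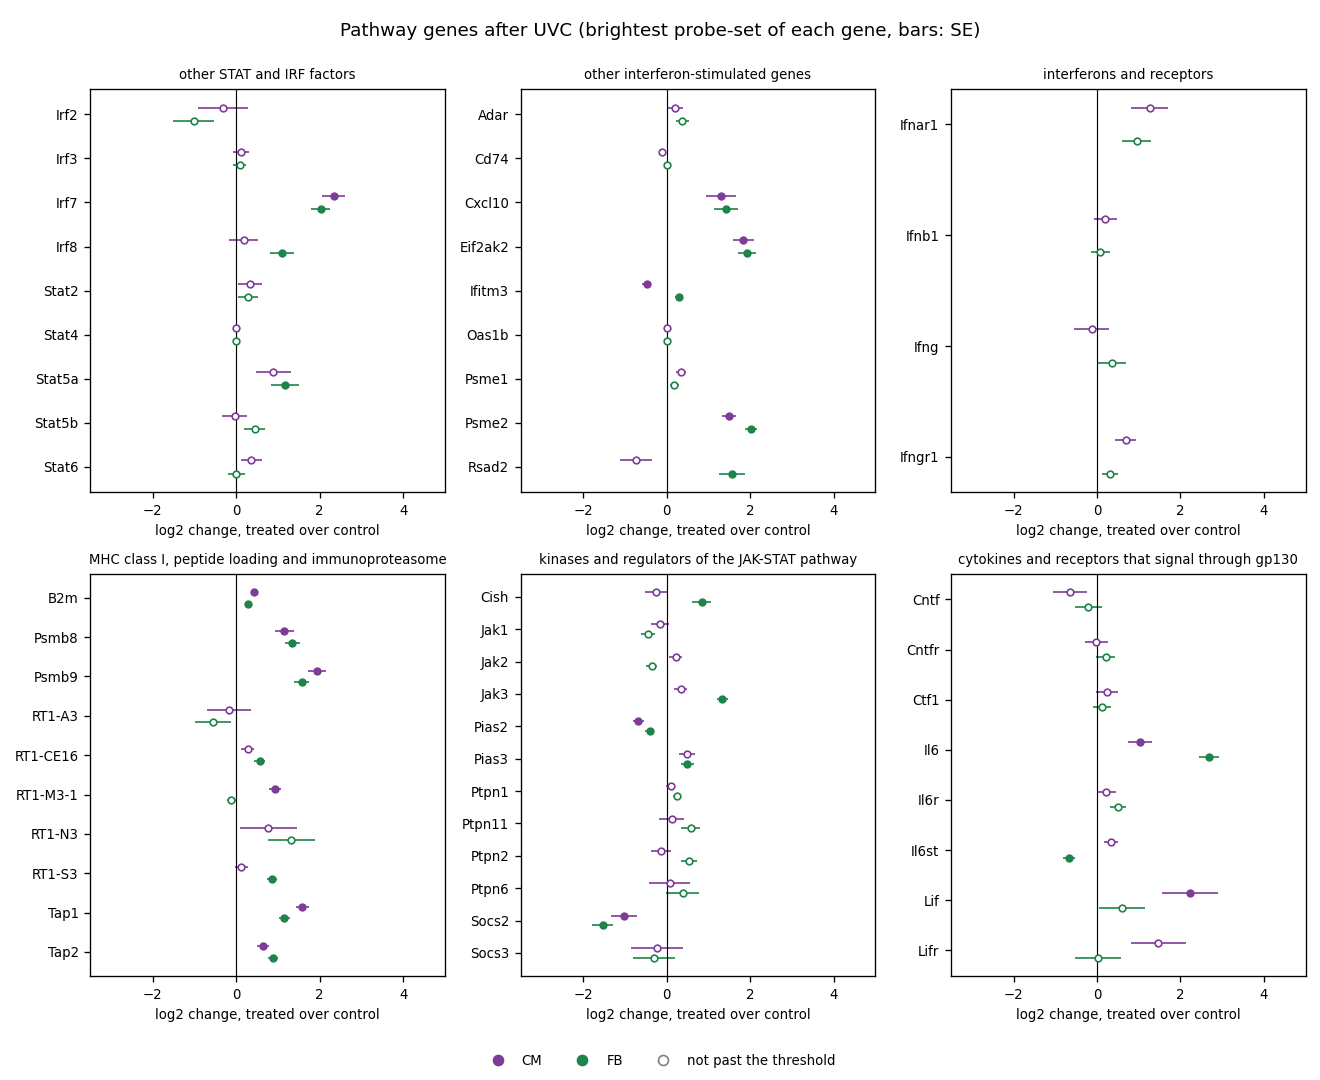
Log2 change after UV (horizontal axis) with its SE for the measured genes of 6 lists (vertical axis), each by its brightest probe-set, with CM in purple above FB in green and filled symbols where the adjusted p was under 0.05. Irf7, Psme2, Eif2ak2, Cxcl10, Tap1, Psmb8 and Psmb9 are filled in both populations, and none of the 4 interferons and receptors is filled in either.

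Cytokines and receptors that signal through gp130, the inputs of Stat3, gave 2 of 8 higher in CM and 1 higher and 1 lower of 8 in FB (25% called in each, against 19.4% and 26.9% of all genes). Il6 rose by 1.03 (SE 0.29, adjusted p = 0.0287) in CM and 2.68 (SE 0.24, adjusted p = 4.62e-06) in FB on the brighter probe-set, the difference being -1.65 (SE 0.37, adjusted p = 0.0223), and its other probe-set lay at the floor on 32 arrays. Lif rose by 2.22 (SE 0.67, adjusted p = 0.0400) in CM. Il6st, which encodes gp130, fell by 0.68 (SE 0.14, adjusted p = 0.00353) in FB and had 0.33 (SE 0.17, adjusted p = 0.246) in CM. Of 16 measured genes known as Stat3 targets, 3 rose and 1 fell in CM, and 3 rose and 2 fell in FB, with medians of 0.14 and 0.04. With 25% and 31.2% called, this list was close to the 19.4% and 26.9% of all genes. After IR and after MS, 0 genes of these 7 lists were called in either population. Of all genes, 0.887% were called after IR in CM and 0.106% in FB, and 0% after MS in either. Among untreated cells, 6 of 16 known Stat3 targets were higher in CM controls of MS than in FB controls and none lower, where 25.7% of all genes differed, but 1 was higher and 2 lower in the UV controls and 1 higher and 3 lower in the IR controls.

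Likeness of pattern was measured by Pearson's r between the treated minus control differences of the 17 pairs, taking the brightest probe-set of each gene. As 5 of the 17 pairs are UV pairs, which hold the larger changes, these r values mostly describe the UV response and are given without a test. Gbp2 was most like Suox (r = 0.94), Abcb1b (0.93) and Jak3 (0.93). Irf1 was most like Nop58 (0.96), Lin7c (0.94) and Sart1 (0.93). Stat3 was most like Tgoln2 (0.86), Slc25a10 (0.83) and Med25 (0.82), and Oas1a like Sh2b1 (0.88), Irf7 (0.85) and Il6 (0.84). Mx1 (Begain, 0.76) and Mx2 (Shisa4, 0.77) had weaker neighbours. Among the members themselves r was 0.73 for Gbp2 and Irf1, 0.74 for Gbp2 and Oas1a and 0.73 for Irf1 and Oas1a, 0.51 for Mx1 and Mx2, and -0.07 for Stat3 and Mx1.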

How the data were processed

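Labelled RNA of 35 samples was hybridised to Affymetrix rat arrays. The authors deposited a single linear intensity per probe-set and array (8799 probe-sets). The gcrma background correction, VSN normalization and linear model of the study act on probe signals, which were not used here, and the software behind the deposited intensity values is not given in the sources used here. Trimmed by 2% at each end, mean intensity is close to 200.3 on 26 arrays and to 1001 on 9 (every CM IR array, with CM UV control 2, treated 2 and treated 3), and pairs never mix these scales. Scan records that the authors deposited for 16 arrays hold other values than measurements and were read for scan and lot alone.

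After 59 control probe-sets were dropped, arrays were brought to a common 75th percentile, values under the 20th percentile of the scaled data (6.88) were set to it, and log2 values were quantile normalized. Between 14.5% and 24.7% of an array lay at this floor. The model in limma 3.58.1 (R 4.3.3, lmFit, then eBayes with a variance trend) held all arrays, with the numbered experiment within population and stressor as a block, following the study, and had 11 residual degrees of freedom. Tests are two-sided, with Benjamini-Hochberg adjustment over 8740 probe-sets at 0.05. The study's own level was 0.005. Experiments were independent according to the study, and p values measure the spread between them. UV-treated CM array 3 has no control, so it does not enter the paired estimates. Untreated CM and FB were compared in a fit of the 17 control arrays alone, without the block. Following the study, a gene counted as called if 50% or more of its probe-sets passed the same way. Both model fits, of all arrays and of the control arrays, were checked on simulated log2 values first. Scaling, the floor and normalization were not part of that check.

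Title numbers pair the samples, and a title that has none counts as experiment 1. Deviations from group means correlated at 0.063 to 0.80 within 17 pairs (over 0.1 in 15), so the pairing rests on the titles and the study's model. No arrays hold identical values. Of the probe-sets, 7006 have 1 symbol, 308 several and 1426 none. The 6 genes and the gene lists were chosen with earlier results of these data known. Named are all probe-sets of the 6 genes, the 3 genes of most similar pattern for each, and up to 4 genes of smallest adjusted p per list, with others chosen after their values were seen (Ifnb1, Rsad2 and Ifitm3, RT1-M3-1, Socs3 and the genes of FB IR experiment 3). Alternatives were a fit without block, the block as random (duplicateCorrelation with statmod 1.5.0), a pseudocount of 10, a floor at the 40th percentile, scaling only, dim probe-sets left out, no variance trend, single comparisons, each experiment left out, and scan or lot as a further block. Promoters come from RefSeq, GRCr8.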

Additional observations from a re-analysis of the deposited data

Results flagged for a closer look

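After UV, the log2 change of Gbp2 in CM fractions minus that in FB cultures was -2.38 (SE 0.46, adjusted p = 0.0104, limma), which passed the test of the difference. Gbp2 was higher after UV in both CM pairs (by 2.43 and 0.72) and in all FB pairs (by 3.95, 3.65 and 4.27). Both CM controls lay at the floor, so the size of the difference depends on the floor. The call was lost in 4 of 11 alternatives: without the block (adjusted p = 0.641), with the block as random (0.286), without experiment 2 (0.0841) and without experiment 3 (0.112). Groups hold 2 or 3 arrays, too few for a test of single outlying samples.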

How the results depend on the processing

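Of 181 alternative counts of called members, 149 stayed within 1.5 times the count reported and 32 moved. Unless stated, the counts below stand without the share of all probe-sets called in the same fit. From these counts alone, a loss of member calls can thus not be told from a general loss of calls in that fit. Of 1448 member values, 73 lost a call, 4 gained one and 0 turned round with a call, and the cause was not tested. Without the replicate block, the members called were 1 after UV in CM and 3 in FB, 0 for the population difference after UV, and 0 for UV minus IR and UV minus MS in CM and in FB. With the replicate block as random, they were 0 for the population difference after UV, 1 for UV minus IR and 1 for UV minus MS in CM, 2 for UV minus MS in FB, and 0, 1 and 0 for the controls of UV, IR and MS. Scaling only left 3 after UV in FB, and leaving out dim probe-sets gave 1 in the IR controls (Gbp2, adjusted p = 0.0493). Fitted on the arrays of 1 comparison, 0 members were called after UV in CM, where 0 of all probe-sets were, and 1 in FB. In that fit of CM the adjusted p (limma) was 0.457 for Gbp2 and 0.342 and 0.310 for Irf1.

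Other fits left out 1 experiment, or both arrays of FB IR experiment 3 (added after seeing the data). The members called then ranged from 3 to 5 after UV in FB and from 0 to 1 for the population difference after UV. In CM they were 1 to 2 for UV minus IR and 1 to 3 for UV minus MS. In FB they were 1 to 3 for UV minus IR and 1 to 4 for UV minus MS. For the controls of UV and of MS they were 0 to 1. These ranges too stand without the share of all probe-sets called in the same fits. They do not set the members apart from other probe-sets.

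The rise of Gbp2 in FB after UV kept its call in 12 of 12 alternatives, from 2.50 to 4.11. With a higher floor the Gbp2 change in CM was 0.30 (adjusted p = 0.180). Dim signal limits Gbp2, Mx1 and Mx2, whose values at the floor are bounds, and 2 pairs limit CM after UV.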
